A study of Mus musculus with 4 samples.

Results

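Integrins and laminins are the receptors and the matrix proteins that hold cells to basement membranes. The genes described here are those whose symbols mark an integrin alpha chain, an integrin beta chain or a laminin chain and that had a probe set assigned to a single gene. They were 35 genes, 25 integrins and 10 laminins, of 19938 genes with such a probe set. Each had 1 probe set, and all 35 passed the filter on low values.

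The arrays came from back skin, taken whole from C57Bl6 mice on postnatal day 22, when hair follicles rest in telogen. Tissue was taken at ZT22, where ZT counts hours from lights on. Of 4 littermate mice, 2 were heterozygous, with 1 mutant and 1 wild-type Bmal1 allele, and 2 were knockouts with both copies deleted in the germline, so that every cell type lacked the gene. The controls therefore also carried a mutant allele, and no fully wild-type skin was compared. Each mouse gave 1 array.

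An integrin is a pair of an alpha and a beta chain that spans the membrane and ties the cytoskeleton to the matrix or to another cell. A laminin is a trimer of an alpha, a beta and a gamma chain and forms the sheet to which basal keratinocytes, muscle fibres, vessels and nerves attach. Keratinocytes use alpha6 beta4 in hemidesmosomes and alpha3 beta1 in focal contacts, muscle fibres use alpha7 beta1 together with dystroglycan, and leukocytes use the beta2 and beta7 families to stick to other cells. BMAL1 pairs with CLOCK and binds E-box elements of DNA.

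Promoters were available in the RefSeq table of GRCm38.p6 for 18 of the 35 genes within 200 bases of the gene's start. No E-box (CACGTG, read the same on both strands) lay in the 250 bases upstream in any of the 18, against 6.09% of all 24742 such promoters. The related element CACGTT (either strand) was also found in 0 of 18, against 3.94%. This says only that those letters are not in these windows. The GC box GGGCGG (either strand), a known binding site of SP1, was present in 8 of 18, or 44.4%, against 31.4% of all promoters. A pair of these promoters is shown because both belong to genes whose knockout arrays lay above the heterozygous arrays, 1 leukocyte and 1 epidermal. Itga11 and Itgb8, of neither list, also had such a promoter and knockout arrays above, and their windows held no GC box. A link between the GC box and the signal was not tested. The Itga4 window is chr2:79255176-79255425 on the plus strand and the Itga3 window chr11:95076715-95076964 on the minus strand, the latter ending 130 bases inside the annotated gene's start. Capitals mark the GC box.
Itga4: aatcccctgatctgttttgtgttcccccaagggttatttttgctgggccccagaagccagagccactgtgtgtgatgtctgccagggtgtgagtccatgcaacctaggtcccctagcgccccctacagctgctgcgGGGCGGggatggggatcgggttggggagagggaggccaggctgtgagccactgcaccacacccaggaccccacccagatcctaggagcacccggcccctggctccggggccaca
Itga3: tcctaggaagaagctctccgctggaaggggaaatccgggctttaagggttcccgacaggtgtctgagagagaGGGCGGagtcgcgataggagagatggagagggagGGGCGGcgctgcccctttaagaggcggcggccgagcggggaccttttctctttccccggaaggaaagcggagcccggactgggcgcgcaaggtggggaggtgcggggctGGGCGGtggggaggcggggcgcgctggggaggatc

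Values are array signals on a log2 scale after quantile normalization, and differences are knockout minus heterozygous with limma's moderated SE and n = 2 per genotype. A level is read within a gene across arrays, since probe sets of different genes differ in brightness for their own reasons. There is no read depth behind an array value, and having 4 arrays limits precision. The Arntl probe set, which measures Bmal1, read 8.90 and 9.08 in the heterozygotes and 8.29 and 8.16 in the knockouts, a difference of -0.76 (SE 0.12, limma adjusted p = 0.015). Both knockout arrays were lower, as labelled, though probes outside the deleted part may keep some signal. All 16 markers of basal keratinocytes, suprabasal keratinocytes and fibroblasts passed the filter on low values, as skin requires. Heterozygous array 2 gave the lowest value for 41.1% of all tested probe sets, where an even split over the arrays would give 25%.

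No integrin or laminin passed the test. With limma over 16341 tested probe sets, 0 of the 35 had an adjusted p under 0.05. The share over the whole array was 1.98%, with 1.47% higher in the knockout and 0.502% lower. The smallest was that of Itga7, at 0.134. When probe sets annotated to several genes were tested as well, 0 of 17557 probe sets passed, Arntl included. At an unadjusted p under 0.05, 5 of the 35 genes, or 14.3%, differed, against a background of 17.9%. Of these, 4 were higher in the knockout (Itga7, Itgae, Itga4 and Itga9), where 11.6% of all probe sets were, and 1 was lower (Itga6), where 6.38% were. The share over all members was therefore near the background. With heterozygous array 2 left out, or knockout array 1, the higher genes at that p numbered 1, and of the 4 fits that left out an array Itga6 kept its p under 0.05 in 1, that without heterozygous array 2.

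The family as a whole lay close to the rest of the array. The median difference was 0.080 over the 35 genes and 0.021 over all tested probe sets. The 25 integrins had a median of 0.096, with 19 higher and 6 lower, and the 10 laminins a median of -0.029, with 4 higher and 6 lower. All 5 genes at an unadjusted p under 0.05 were alpha chains, of which 17 were tested. That share was 29.4%, against 17.9% of all tested probe sets, and the difference between alpha and beta chains was not tested. The 8 beta chains ranged from -0.064 to 0.11 and the laminins from -0.18 to 0.11. The 95% interval of a gene's difference reached between 0.241 and 0.385 to either side, and for 30 of the 35 genes it lay within 0.5 of 0. Differences of the size seen for most of these genes were therefore not detectable with 4 arrays, while changes beyond 1.41-fold lay outside the interval for those 30.

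**Figure D1:**
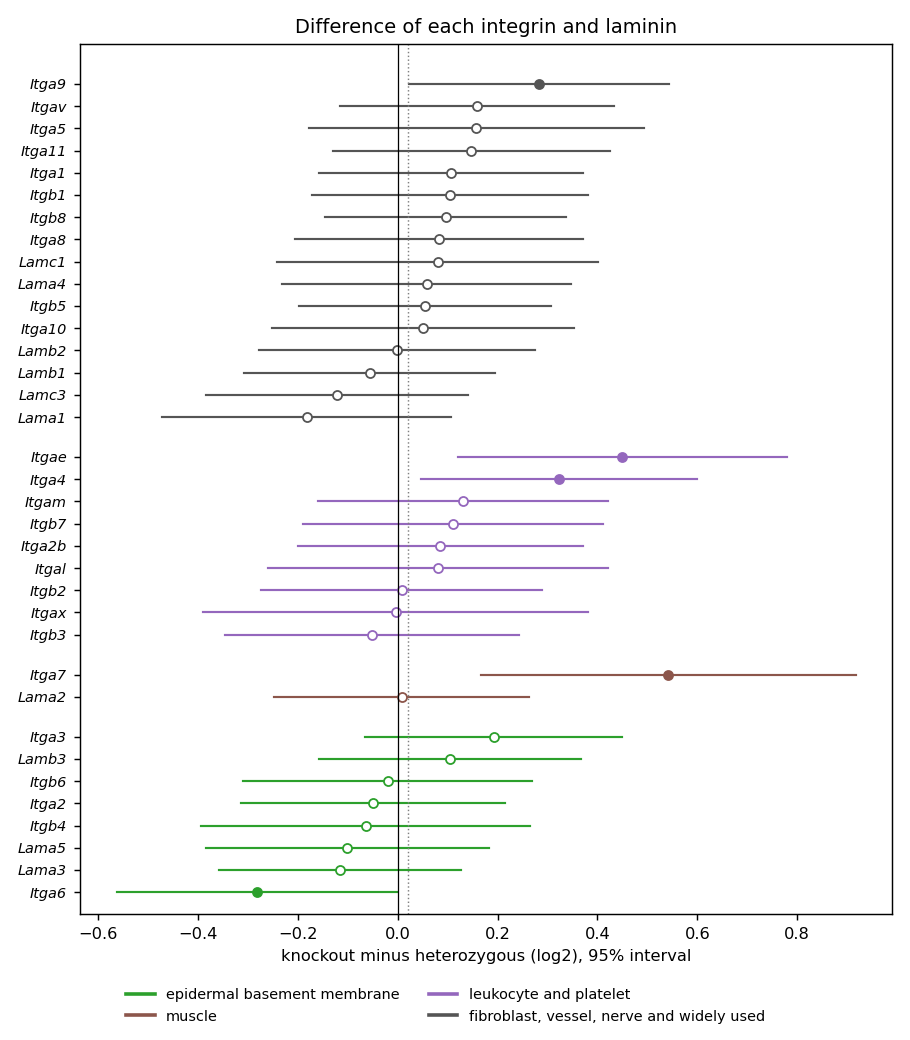
Difference of each of the 35 genes, knockout minus heterozygous on the log2 scale, with limma's 95% interval (n = 2 per genotype). Filled points have an unadjusted p under 0.05, colours give the 4 lists, and the dotted line is the median over all tested probe sets (0.021). The filled points are Itga6 below 0 and Itga7, Itgae, Itga4 and Itga9 above it.

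Both knockout arrays lay above both heterozygous arrays for 7 of the 35 genes, against 27.8% of all tested probe sets, and below them for 3, against 22.1%. The 7 were Itga3, Itga4, Itga7, Itga9, Itga11, Itgae and Itgb8, and the 3 were Itga6, Lama1 and Lama3. In the other 25 genes the groups overlapped. Heterozygous array 2 was the lowest array for 21 of the 35 genes and knockout array 1 the highest for 19. Over all tested probe sets these shares were 41.1% and 35.3%. Without heterozygous array 2 the median of the 35 differences was -0.010, with 17 genes higher and 18 lower. Without knockout array 1 it was -0.044, with 16 higher and 19 lower. The balance of higher against lower genes therefore rested on these arrays. The median over all tested probe sets moved as well, from 0.021 to -0.013 without heterozygous array 2 and -0.0042 without knockout array 1.

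The epidermal basement membrane genes did not move together. Of the 8 measured members, 2 were higher and 6 lower, with a median difference of -0.056 and a range from -0.28 to 0.19, and none passed. In whole skin, fewer cells of a type and less RNA per cell cannot be told apart, here or for the lists that follow. The sign of the list depended on the scaling. The median of all tested probe sets moved too, from 0.021 to 0.065 as deposited and 0.10 after median centring. The median of the list was 0.039 with the values as deposited and 0.075 after median centring. It was 0.083 with knockout array 2 left out and -0.15 with knockout array 1 left out. Over all tested probe sets these medians were 0.049 and -0.0042.

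Itga6, the alpha chain that pairs with beta4 in hemidesmosomes and marks basal keratinocytes, read 10.87 and 10.61 in the heterozygotes and 10.51 and 10.41 in the knockouts. Both knockout arrays were lower, by a small margin from heterozygous array 2. On the linear scale the knockouts averaged 82.2% of the heterozygotes, a log2 difference of -0.28 (SE 0.13, unadjusted p = 0.049, limma adjusted p = 0.28). Without heterozygous array 1 it was -0.15, and with the values as deposited -0.18, where knockout array 1 no longer lay below heterozygous array 2. After median centring it was -0.15.

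Its partner Itgb4, which carries the long tail that binds the keratin cytoskeleton through plectin, read 10.19 and 10.07 in the heterozygotes and 10.28 and 9.85 in the knockouts. The knockout arrays spanned the heterozygous ones. The difference was -0.064 (SE 0.15), with an interval from -0.39 to 0.27, and it was 0.084 after median centring.

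Itga3, which pairs with beta1 to bind epidermal laminin, was the highest of this list. It read 8.71 and 8.56 in the heterozygotes and 8.87 and 8.78 in the knockouts, with the knockout arrays above but close. The difference was 0.19 (SE 0.11, unadjusted p = 0.126), or 0.12 with heterozygous array 2 left out. Itga2, a collagen receptor chain, read 9.21 and 9.11 against 9.21 and 9.01. Itgb6, an epithelial beta chain that pairs with alpha v, read 8.02 and 8.14 against 8.20 and 7.93. In both genes the groups overlapped, and the differences were -0.049 and -0.020.

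Of the laminin chains under the epidermis, Lama3 and Lamb3 are partners in the same trimer, which anchors the hemidesmosome. Lama3 read 8.91 and 8.97 in the heterozygotes and 8.85 and 8.80 in the knockouts, with both knockouts slightly lower. Lamb3 read 8.98 and 8.93 in the heterozygotes and 9.16 and 8.96 in the knockouts, where the groups overlapped. Their differences were -0.12 (SE 0.11) and 0.10 (SE 0.12), and after median centring that of Lama3 was 0.031. Lama5, a chain of other epithelial and vascular basement membranes, read 8.47 and 8.65 against 8.57 and 8.34, a difference of -0.10 (SE 0.13) with overlapping groups.

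The basal keratinocyte markers Krt5, Krt14, Krt15, Trp63 and Col17a1 were set beside this list. Of the 5, 3 were higher and 2 lower, with a median of 0.19, and 0 passed at an unadjusted p under 0.05. Their summed linear signal was 20150 and 14680 in the heterozygotes and 20950 and 17280 in the knockouts, so heterozygous array 2 was the low one. Over the 8 members of the list the sums were 5649 and 5246 in the heterozygotes and 5474 and 4748 in the knockouts. The part of keratinocyte number in these values was not tested.

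**Figure D2:**
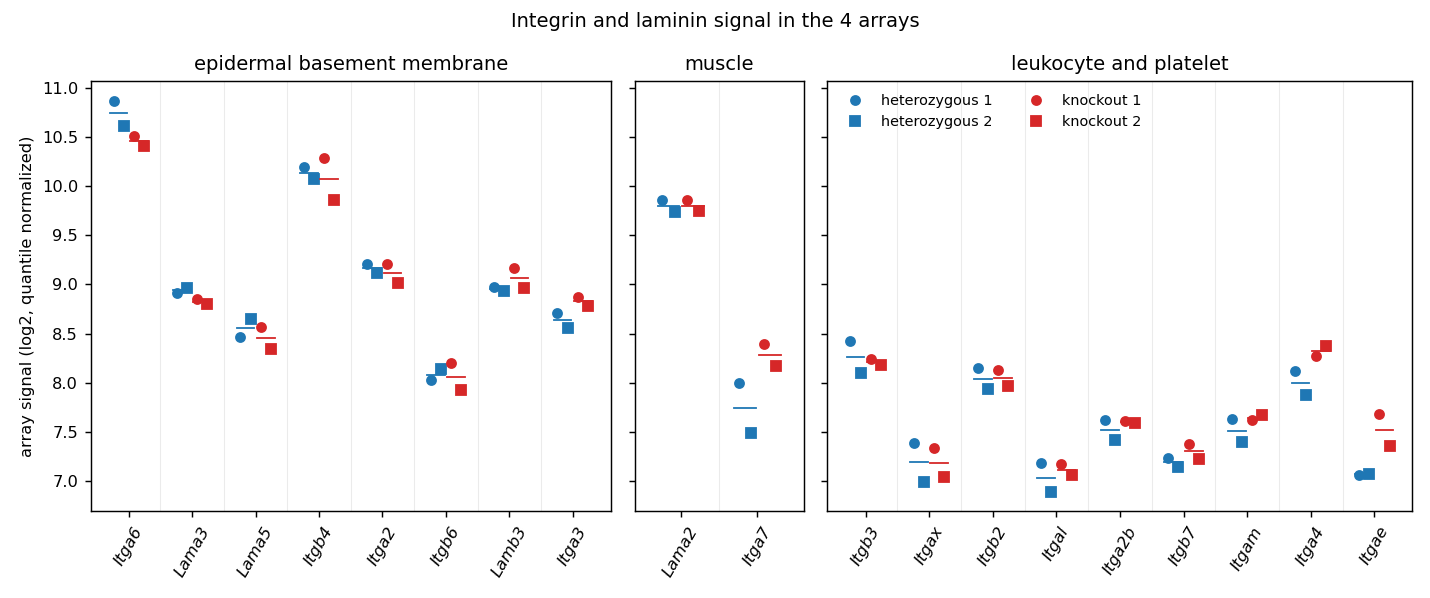
Signal of the 19 genes of the first 3 lists in each array (log2, quantile normalized), with blue for heterozygous and red for knockout, circles for array 1 and squares for array 2, and lines for the means of each pair. Itga6 sits lower in both knockout arrays, Itga7, Itga4 and Itgae higher, and heterozygous array 2 is the lowest array in 8 of the 9 leukocyte and platelet genes.

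Of the 2 muscle genes, the receptor read higher in the knockouts and its ligand read nearly the same. Their median difference was 0.27, or 0.12 with heterozygous array 2 left out. Itga7, the laminin receptor chain of skeletal muscle, read 7.99 and 7.49 in the heterozygotes and 8.40 and 8.17 in the knockouts. Both knockout arrays were higher, while the heterozygous arrays lay 0.507 apart. The difference was 0.54, or 1.46-fold (SE 0.17, unadjusted p = 0.0093, limma adjusted p = 0.134), the widest of the 35. Leaving out heterozygous array 1 gave 0.80 (adjusted p = 0.0164), and leaving out heterozygous array 2 gave 0.29 (adjusted p = 0.418). Adjusted p was 0.0403 after median centring and otherwise lay between 0.0789 and 0.387 under the other scalings, offsets, filters, variance priors and choices of probe sets.

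Lama2, the alpha chain of muscle laminin, which nerve and dermal cells also make, read 9.86 and 9.73 in the heterozygotes and 9.85 and 9.75 in the knockouts. The pairs were nearly the same, with a difference of 0.0076 (SE 0.11) and an interval from -0.25 to 0.26. The test of the difference between Itga7 and Lama2 was not made.

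Skeletal muscle markers also read higher in the knockouts. Of 10 markers, 9 were higher with both knockout arrays above the heterozygous pair, against 27.8% of all tested probe sets. Those that passed and rose were 4 (Des, Casq1, Myh1 and Mylpf), against 1.47% of all tested probe sets. With knockout array 1 left out the calls of Des (limma adjusted p = 0.0615), Casq1 (0.102) and Mylpf (0.112) ended, and all 4 ended with all probe sets and with probe sets of several genes. The median was 0.58. The exception was Mb, myoglobin, at -0.11. Their summed linear signal was 40440 and 42280 in the heterozygotes and 67500 and 56250 in the knockouts. The part of muscle content in the Itga7 difference was not tested.

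The genes that link laminin to the muscle cytoskeleton by the other route likewise read higher. Dystroglycan itself, Dag1, was counted with the basement membrane partners and not in this list. It differed by 0.30 and did not pass (SE 0.13, limma adjusted p = 0.272). Of the 6 tested genes of the dystroglycan and sarcoglycan complex, 2 passed and rose, against 1.47% of all tested probe sets. None passed and fell. In 5 of the 6 both knockout arrays lay above both heterozygous ones, against 27.8% of all tested probe sets. The median difference was 0.49. Sgcd, delta-sarcoglycan, read 8.22 and 8.18 in the heterozygotes and 8.84 and 8.77 in the knockouts, a rise of 0.60 (SE 0.11, limma adjusted p = 0.027). Sgca, alpha-sarcoglycan, a muscle-specific chain, read 8.64 and 8.75 against 9.32 and 9.27, a rise of 0.60 (SE 0.11, adjusted p = 0.027). Each pair lay close together and the pairs stood well apart. Dmd, dystrophin, read 8.21 and 8.49 against 9.15 and 8.71, a difference of 0.58 that did not pass (SE 0.16, adjusted p = 0.0975), though it did after median centring (0.0207) and with knockout array 2 left out (0.0295). With knockout array 1 left out Dmd differed by 0.36 (adjusted p = 0.50), and with heterozygous array 1 left out by 0.44 (0.175). Sgcb, beta-sarcoglycan, and Dtna, alpha-dystrobrevin, differed by 0.31 and 0.41 and did not pass. The member with a negative difference was Sgce, epsilon-sarcoglycan, which tissues outside muscle also express, at -0.14 with overlapping groups. Both calls ended with knockout array 1 left out (adjusted p = 0.173 for Sgcd and 0.161 for Sgca), with knockout array 2 left out (0.0606 and 0.0617) and without a filter (0.0539 and 0.0504), and that of Sgcd with heterozygous array 2 left out (0.056).

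Of the 20 tested integrin adaptors and signalling genes, 0 passed and fell and 1 passed and rose, against 1.47% of all tested probe sets. It was Itgb1bp2, which encodes melusin, a muscle protein that binds the tail of integrin beta1. It read 7.82 and 8.11 in the heterozygotes and 9.12 and 9.03 in the knockouts. The knockout pair stood clear of the heterozygous pair, and the rise was 1.11, or 2.16-fold (SE 0.13, limma adjusted p = 0.0065). Its call held with each array left out, where adjusted p lay between 0.00193 and 0.0241, and without a filter (0.0204). The next 2 by p did not pass: Parvb, beta-parvin, an actin-binding adaptor, differed by 0.42 (SE 0.13, adjusted p = 0.140) and Tln2, a talin that activates integrins, by 0.41 (SE 0.13, adjusted p = 0.150). The calls of Itgb1bp2, Sgcd and Sgca ended when probe sets of several genes were tested as well, where adjusted p was 0.094, 0.114 and 0.119, and when all probe sets were tested, where it was 0.266 for each. The differences themselves were the same in both settings.

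**Figure D3:**
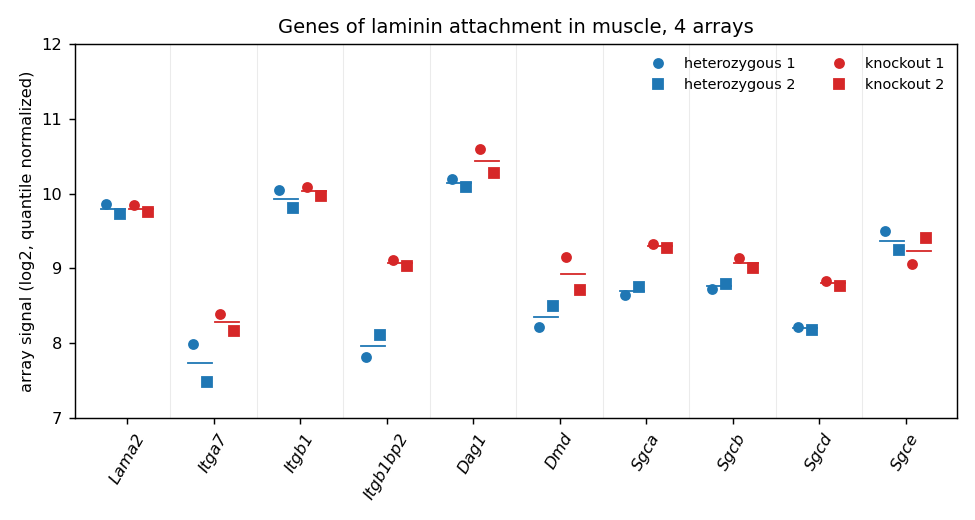
Signal in each array (log2, quantile normalized) of muscle laminin, its integrin and dystroglycan receptors and the proteins bound to them, with colours, symbols and lines as in the plot of the first 3 lists. Itgb1bp2, Sgca and Sgcd, which passed, have knockout pairs above the heterozygous pairs, Itga7 shows the same order without passing, and the pairs of Lama2 nearly coincide.

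The leukocyte and platelet integrins did not read lower in the knockout as a list. Of 9 genes, 7 were higher and 2 lower, with a median difference of 0.085 and a range from -0.051 to 0.45. None passed, and 2 had an unadjusted p under 0.05, or 22.2%, against 17.9% of all tested probe sets. The median was -0.017 with heterozygous array 2 left out and 0.19 with heterozygous array 1 left out. Heterozygous array 2 read lowest in 8 of the 9. A stricter filter, at the 50th percentile of mean signal, removed Itgae, Itgal, Itgam, Itgax, Itgb7 and Itga2b. The median of the rest of the list was 0.0080.

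Itgae, the alpha chain that pairs with beta7 on lymphocytes resident in epithelia, including the dendritic T cells of mouse epidermis, read 7.06 and 7.07 in the heterozygotes and 7.69 and 7.35 in the knockouts. The heterozygous pair coincided and both knockout arrays were higher. The difference was 0.45, or 1.37-fold (SE 0.15, unadjusted p = 0.013, limma adjusted p = 0.152), and without knockout array 1 it was 0.28. Its signal fell below the stricter filter, at the 50th percentile of mean signal. Itgb7, its partner, read 7.23 and 7.15 against 7.38 and 7.23, where the groups overlapped, with a difference of 0.11 (SE 0.13).

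Itga4, which pairs with beta1 or beta7 to bind VCAM1 and fibronectin, read 8.12 and 7.88 in the heterozygotes and 8.27 and 8.37 in the knockouts. Both knockout arrays were higher. The difference was 0.32, or 1.25-fold (SE 0.12, unadjusted p = 0.027, limma adjusted p = 0.211), or 0.20 with heterozygous array 2 left out. Its promoter is the first of those printed above.

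The beta2 integrins of leukocytes showed no such order. Itgb2, the common beta chain, read 8.14 and 7.93 in the heterozygotes and 8.13 and 7.97 in the knockouts. Array 1 was the higher of each pair and the groups overlapped. The difference was 0.0080 (SE 0.13) with an interval from -0.27 to 0.29. Of its alpha partners, Itgal of lymphocytes read 7.18 and 6.89 against 7.17 and 7.06, Itgam of myeloid cells 7.63 and 7.40 against 7.62 and 7.67, and Itgax of dendritic cells 7.39 and 6.99 against 7.33 and 7.04. All 3 overlapped, with differences of 0.080, 0.13 and -0.0044. With heterozygous array 2 left out they were -0.064, 0.015 and -0.20. A further 3 probe sets were annotated to both Rpl35 and Itgam and were not used.

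The platelet receptor is built from Itga2b and Itgb3. Itga2b read 7.62 and 7.41 in the heterozygotes and 7.61 and 7.59 in the knockouts. Itgb3, which also pairs with alpha v on other cells, read 8.43 and 8.10 against 8.24 and 8.18. The groups overlapped in both, with differences of 0.085 and -0.051. Of 4 platelet markers 2 were tested, Pf4 at -0.28 and Gp9 at -0.45, and neither passed.

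Leukocyte markers read lower in the same arrays. Of 10, 7 were lower and 3 higher, with a median of -0.20, and 1 passed, H2-Aa, an MHC class II chain that fell by 0.54 (SE 0.12, limma adjusted p = 0.0497). That call ended in most alternatives, among them without knockout array 1 (0.263), without knockout array 2 (0.155), without heterozygous array 1 (0.062) and with the values as deposited (0.061). Cd68 of macrophages differed by -0.65 and Ptprc, the common leukocyte antigen, by -0.25. The 3 higher were Cd207 at 0.14, Csf1r at 0.077 and Cd52 at 0.00098. Both knockout arrays lay below both heterozygous arrays for 6 of the 10, Cd68 and Ptprc among them, against 22.1% of all tested probe sets. They lay above for 1, against 27.8%. The summed linear signal of the 10 was 15410 and 13470 in the heterozygotes and 11390 and 11700 in the knockouts. The 9 integrins summed to 1895 and 1616 in the heterozygotes and 1961 and 1845 in the knockouts. Mean signals ran from 7.08 to 8.24 for these integrins and from 7.39 to 11.78 for the markers. The difference between integrins and markers was not itself tested, and the part of leukocyte number was not tested.

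**Figure D4:**
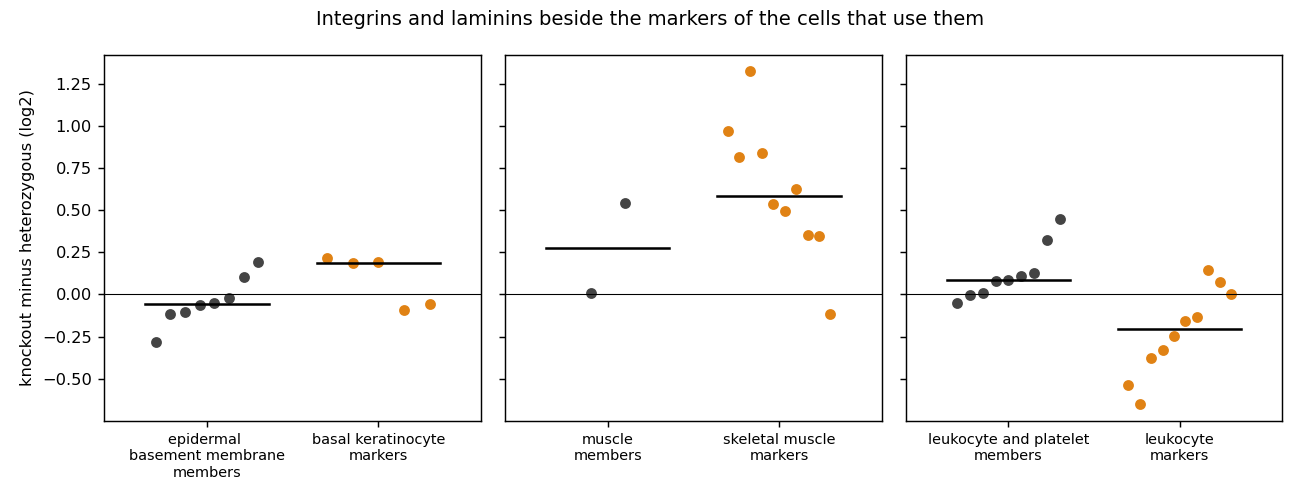
Differences, knockout minus heterozygous on the log2 scale, of the genes of 3 lists (dark points) beside markers of the matching cell type (orange points), with bars at the medians. Medians are -0.056 and 0.19 for the epidermis, 0.27 and 0.58 for muscle and 0.085 and -0.20 for leukocytes.

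The remaining 16 genes belong to fibroblasts, vessels, nerves or many cell types. Of these 12 were higher and 4 lower, with a median of 0.082. At an unadjusted p under 0.05 there was 1 gene, or 6.25%, against 17.9% of all tested probe sets. It was Itga9, which pairs with beta1 and binds tenascin C and other matrix proteins. Itga9 read 8.25 and 8.22 in the heterozygotes and 8.62 and 8.42 in the knockouts. Both knockout arrays were higher, with a difference of 0.28, or 1.22-fold (SE 0.12, unadjusted p = 0.037, limma adjusted p = 0.243). Without knockout array 1 it was 0.19.

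The shared partners of many alpha chains differed little. Itgb1, the beta chain of the collagen, laminin and fibronectin receptors, read 10.05 and 9.81 in the heterozygotes and 10.09 and 9.97 in the knockouts, a difference of 0.10 (SE 0.12) with overlapping groups. Itgav, which pairs with several beta chains, read 9.97 and 9.75 against 10.09 and 9.95, a difference of 0.16 (SE 0.12). Without heterozygous array 2 that of Itgb1 was -0.014 and that of Itgav 0.051. Itgb5 and Itgb8, further partners of alpha v, differed by 0.054 and 0.096.

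Among the collagen and fibronectin receptor chains, Itga1 differed by 0.11, Itga10 by 0.051, Itga11 of fibroblasts by 0.15 and Itga5 by 0.16. Itga8, the receptor chain for nephronectin, differed by 0.083. Its ligand Npnt, a basement membrane protein, read 8.98 and 8.94 in the heterozygotes and 9.45 and 9.38 in the knockouts. The pairs stood apart, with a difference of 0.46 that did not pass (SE 0.11, limma adjusted p = 0.068). Npnt passed with the values as deposited (0.0339), after median centring (0.0213), with the stricter filter (0.0427) and with a robust variance prior (0.0473). Among other settings, it did not pass without a filter (0.1), with a prior without a trend (0.0953) or with all probe sets (0.283). With an array left out the difference lay between 0.42 and 0.49.

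None of the general laminin chains passed. Lamc1, the gamma chain of most laminins, read 10.19 and 9.82 in the heterozygotes and 10.18 and 9.99 in the knockouts. The difference was 0.080 (SE 0.14), and -0.11 without heterozygous array 2. Lama4 of vessels and nerves differed by 0.058, Lamb1 by -0.056, Lamb2 of the neuromuscular junction by -0.0016, Lamc3 by -0.12 and Lama1 by -0.18. Lama1, which had both knockout arrays lower, differed by -0.11 with heterozygous array 2 left out. Endothelial markers had a median of -0.053 over 6 genes, with none at an unadjusted p under 0.05. Smooth muscle markers had a median of -0.30 over 5 genes, 4 of them with knockout arrays below the heterozygous ones, against 22.1% of all probe sets. Of the 5, 2 had an unadjusted p under 0.05, Cnn1 at -0.62 and Myh11 at -0.36. Of all probe sets 17.9% did, and 6.38% were lower at that p. Tagln, of the same list, was higher at 0.098 with overlapping groups. Of the same 5, 0 passed the limma test after adjustment.

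Other basement membrane proteins and integrin ligands showed no passing gene. Of 21 basement membrane partners 9 were higher and 12 lower, with a median of -0.042. After Npnt the smallest p were those of Cd151, a tetraspanin bound to laminin-binding integrins (0.35, SE 0.13, limma adjusted p = 0.208), and Col4a5, a collagen IV chain (-0.28, SE 0.11, adjusted p = 0.225). Cd151 read 9.74 and 9.43 in the heterozygotes and 9.99 and 9.87 in the knockouts. The hemidesmosome genes Col17a1, Plec and Dst differed by -0.055, -0.061 and -0.13 with overlapping groups. Of 11 tested ligands outside the laminins, 5 were higher and 6 lower, with a median of -0.048. Postn, periostin, a ligand of alpha v integrins, differed by 0.57 (SE 0.13, adjusted p = 0.0559). It passed with the values as deposited (0.0361), after median centring (0.015), with the stricter filter (0.0351), with a robust variance prior (0.0427) and with heterozygous array 1 left out (0.0151). Postn did not pass with heterozygous array 2 (0.136), knockout array 1 (0.304) or knockout array 2 (0.110) left out. Fn1, fibronectin, differed by -0.51 (SE 0.13, adjusted p = 0.083) and Vwf of vessels and platelets by -0.26 (SE 0.13, adjusted p = 0.317). Postn read 11.51 and 11.24 in the heterozygotes and 12.00 and 11.89 in the knockouts, and Fn1 read 12.05 and 11.82 against 11.32 and 11.54. In both the pairs did not overlap, in opposite directions.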

How the data were processed

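The deposited file holds 35557 probe sets in 4 arrays as values taken to be log2 from their range. Per the submitters' processing notes, the authors used Affymetrix Expression Console 1.1.1 and PLIER 2.0. The sources used here do not give their scale or say whether arrays were scaled to each other. PLIER averages probes along a transcript, so a change in 1 isoform can be hidden, and signal near background compresses differences. Quartiles of the arrays differed, so all were quantile normalized. Probe sets paired with 1 gene numbered 21789, and for 21698 the symbol was taken from the RefSeq table of GRCm38.p6 through the gene identifier. Tested were the 16341 of these with a mean above the 25th percentile (6.67). An earlier treatment of these arrays also tested probe sets of several genes, which is an alternative here.

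Knockout and heterozygous arrays were compared with limma 3.58.1 in R 4.3.3 (eBayes with a trend, 2 residual degrees of freedom) and p-values adjusted by Benjamini-Hochberg across all tested probe sets. The threshold was 0.05. An exact permutation test of 2 against 2 arrays cannot give a p below 0.333 and was not used. Fits were tested on simulated data. Genes were named by a fixed rule: every member, Arntl, and the 3 smallest p of each partner list. Marker genes, Dag1, Dmd's complex beyond those 3, Npnt's and Cd151's array values and the hemidesmosome genes were chosen after values were seen. The members and lists were chosen with earlier results of these data known. Same-numbered arrays' deviations from the genotype mean correlated at 0.167, but the labels do not say that a number marks a shared litter. No 2 arrays had equal values in over 0.104% of probe sets, so none was a copy of another.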

Additional observations from a re-analysis of the deposited data

How the results depend on the processing

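The alternatives were the values as deposited, median centring, offsets of 16 and 64, testing without a filter or with one at the 50th percentile, a robust variance prior or one without a trend, a replicate block, each array left out, all probe sets, and 1 probe set per gene. Testing probe sets of several genes was chosen after seeing the data. With an array left out, the lone array was assumed to vary like the other pair. Each member had 1 probe set, so a median over probe sets gave the same values. Members past the threshold numbered 0, but 1 after median centring (Itga7), and from 0 to 1 with an array left out. With the replicate block they numbered 2, Itga7 (adjusted p = 0.015) and Itgae (0.042), and Postn (0.0152), Dmd (0.032), Npnt (0.032) and Fn1 (0.0398) passed too. The 4 members higher at an unadjusted p under 0.05 became 2 with all probe sets and from 1 to 4 with an array left out. The 1 lower became 0 with the values as deposited, median centring, the stricter filter, a prior with no trend, all probe sets and probe sets of several genes, and from 0 to 1 with an array left out. The epidermal median moved to 0.075 after median centring, and lay between -0.15 and 0.083 with an array left out. Probe sets past the threshold numbered 323 (74.6% higher), 544 (84.4%) as deposited, 913 (85.4%) after median centring, 145 without a filter, 441 with the stricter filter, 221 without a trend, 450 with a robust prior, 1235 with the block, 0 with all probe sets and 0 with those of several genes, and from 77 to 986 with an array left out. With all probe sets 3423 had an unadjusted p under 0.05, and 2713 with those of several genes. The median of all differences was 0.021, 0.065 as deposited and 0.10 after median centring.

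Signs turned for 21 of the 35 members in some setting, and for 14 in none. As deposited, the turned values were 0.048 for Itgb4, 0.10 for Lamb2, 0.071 for Itga2, 0.064 for Lamb1, 0.0078 for Itgb3, 0.031 for Itgb6, -0.016 for Itga10 and -0.012 for Itgal. After median centring they were 0.084 for Itgb4, 0.14 for Lamb2, 0.11 for Itga2, 0.099 for Lamb1, 0.031 for Lama3, 0.032 for Lama5, 0.0048 for Lamc3, 0.044 for Itgb3 and 0.066 for Itgb6. The cause was not tested. With an array left out, the ranges of members whose sign turned were -0.014 to 0.12 for Itgb5, -0.28 to 0.15 for Itgb4, -0.11 to 0.27 for Lamc1, -0.014 to 0.22 for Itgb1, -0.054 to 0.069 for Lama2, -0.058 to 0.17 for Lama4, -0.13 to 0.13 for Lamb2, -0.15 to 0.049 for Itga2, -0.12 to 0.0091 for Lamb1, -0.065 to 0.38 for Itga5, -0.22 to 0.014 for Lama5, -0.21 to 0.11 for Itgb3, -0.16 to 0.12 for Itgb6, -0.098 to 0.11 for Itgb2, -0.049 to 0.22 for Itga8, -0.017 to 0.19 for Itga2b, -0.044 to 0.15 for Itga10, -0.20 to 0.19 for Itgax and -0.064 to 0.23 for Itgal.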
